A study of Mus musculus with 6 samples.

Results

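The respiratory chain and ATP synthase genes were taken by symbol, as every gene whose platform annotation begins with Nduf, Sdha, Sdhb, Sdhc, Sdhd, Uqcr, Cox4, Cox5, Cox6, Cox7, Cox8 or Atp5. This gave 71 genes of 16675 on the array, with 82 probes. There were 31 genes of complex I, 4 of complex II, 6 of complex III, 15 of complex IV and 9 of complex V. The prefixes also took in 6 genes that are not subunits. Ndufaf1 and Ndufa12l (now Ndufaf2) are assembly factors of complex I, Cox7a2l is a supercomplex factor, Cox4nb (now Emc8) is a neighbour of Cox4i1 in the genome, and Atp5s and Atp5sl carry the names Dmac2l and Dmac2 in RefSeq. Ndufa4, named for complex I, was counted with complex IV, where it is now placed.

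The respiratory chain sits in the inner mitochondrial membrane. Complex I takes electrons from NADH and complex II from succinate, complex III passes them to cytochrome c, and complex IV, cytochrome c oxidase, hands them to oxygen. Complexes I, III and IV pump protons, and complex V, the ATP synthase, makes ATP from the proton gradient. Skeletal muscle, heart, kidney and brown fat are rich in these proteins. Several small subunits of complex IV exist as a general form and as a form of contractile tissue, encoded by separate genes.

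All mice were ob/ob (B6.V-Lepob/J), which lack functional leptin, and the labels give no age and do not say whether animals were pooled. After 4 h of fasting they received PBS or MCSE by mouth, and 15 min later glucose at 1 g/kg into the peritoneum. MCSE is an aqueous extract of the seeds of Momordica charantia (bitter melon). Muscle, adipose tissue and liver were taken 4 h after the glucose, and there was 1 array for each of the 6 combinations of label and treatment. MCSE and PBS therefore could not be tested within a label, and a test over labels assumes that MCSE acts alike in each.

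Not every array matched its label. The muscle arrays carried the fast fibre markers, whose median was 15.86 (log2 intensity) with PBS and 15.82 with MCSE, against 8.96 to 9.40 on the other arrays. The arrays labelled liver carried hepatocyte markers (medians 12.47 and 12.06), white adipocyte markers (14.59 and 14.97) and kidney markers (11.86 and 13.08) together, so "liver" below is the name of a label. Their white adipocyte medians compare with 12.75 and 12.89 on the muscle arrays. The array labelled MCSE adipose was close to the MCSE liver array (Pearson correlation 0.98 over all probes). The PBS adipose array correlated with none of the others above 0.52 (lowest 0.31), with a white adipocyte median of 9.05. Fewer cells of a type and less RNA per cell cannot be told apart in such tissue RNA.

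Subunit genes were bright on 5 of the 6 arrays. The median over the 71 genes was 14.09 with PBS and 14.24 with MCSE in muscle, 13.46 and 13.75 for the liver label, and 13.87 for MCSE adipose. For PBS adipose it was 10.25. The median over all genes lay between 9.17 and 9.43 on every array. On the muscle arrays 55 and 53 of the 71 genes reached the top 5% of all probes, on the liver-labelled arrays 43 and 47, and for the adipose label 8 with PBS and 49 with MCSE. How bright a probe is depends on its sequence as well as on the RNA, so these counts describe the arrays. The scale ended at 16.41.

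By complex, the medians on the PBS and MCSE muscle arrays were 13.98 and 14.18 for complex I, 14.79 and 14.81 for II, 13.71 and 14.21 for III, 14.47 and 14.53 for IV and 15.12 and 15.35 for V. On the liver-labelled arrays they were 13.47 and 13.75, 14.21 and 14.32, 12.38 and 13.23, 12.67 and 12.96, and 14.55 and 14.61 in the same order. Levels of different probes cannot be set against each other on an array, so these medians compare arrays and not complexes. A few subunits lay near the median of all probes (8.95). Ndufab1, the mitochondrial acyl carrier protein, lay at 8.89 to 9.99 on the muscle and liver-labelled arrays. Uqcrq, a small subunit of complex III, lay at 9.23 and 9.08 on muscle and at 8.53 and 8.50 on the liver label.

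Forms known from other tissues were dim. Cox4i2, the lung form of subunit 4, lay at the floor of the scale (7.74) on all 6 arrays. Cox7b2 stayed between 7.74 and 7.88, and Cox8c between 8.06 and 9.85 with its highest value on the PBS adipose array. These 3 genes were below the median probe on the muscle and liver-labelled arrays and were not counted as measured. Cox6b2, a testis form, was an exception among such genes and lay between 11.57 and 12.84 on all 6 arrays.

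**Figure D1:**
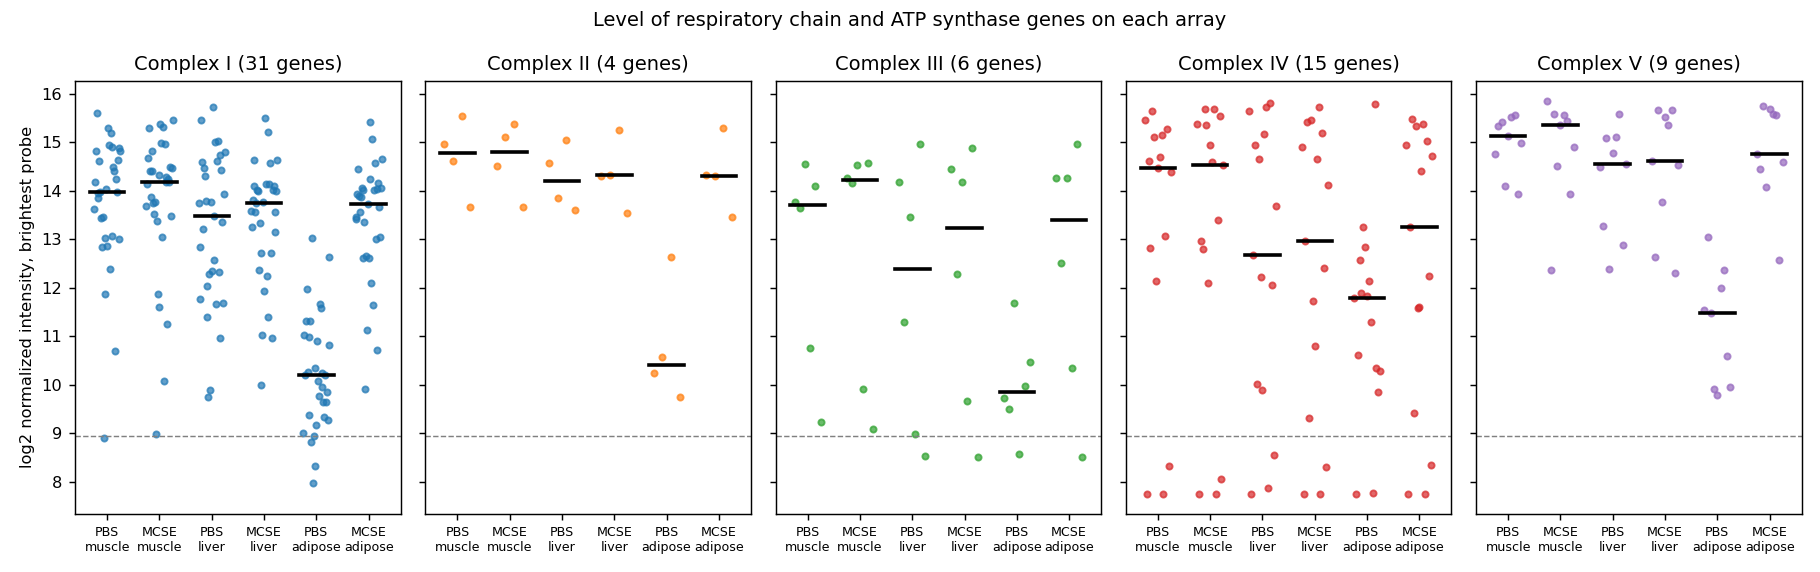
Level of each gene on each array, by complex. The y axis is log2 normalized intensity of the brightest probe, points are genes, black bars are medians and the dashed line is the median of all probes (8.95). The PBS adipose array lies low in every complex, with medians between 9.85 and 11.80, and the 5 other arrays lie between 12.38 and 15.35.

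The widest difference between labels was a change of isoform in complex IV. Cox6a2, Cox7a1 and Cox8b, the forms of subunits 6a, 7a and 8 used in skeletal muscle and heart, were higher on muscle. Cox6a1 and Cox8a, the general forms, were lower on muscle. The bases just before the start of 4 of these genes are shown because the genes divided by label into a muscle set and a general set. The 4 were thus picked by their levels. Cox6a2 had no entry among the promoters used, and Cox7a2, a general form that did not divide by label, is not shown. The sequences are those of RefSeq (GRCm38.p6), 250 bases up to the annotated start, 5′ to 3′ on the gene's strand. A match to a searched motif is in capitals.
Cox7a1, chr7:30183921-30184170, plus strand: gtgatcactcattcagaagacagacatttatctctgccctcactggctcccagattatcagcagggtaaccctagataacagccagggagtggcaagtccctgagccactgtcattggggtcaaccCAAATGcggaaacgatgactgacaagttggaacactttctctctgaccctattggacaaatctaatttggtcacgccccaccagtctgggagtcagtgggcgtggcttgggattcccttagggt
Cox8b, chr7:140900447-140900696, minus strand: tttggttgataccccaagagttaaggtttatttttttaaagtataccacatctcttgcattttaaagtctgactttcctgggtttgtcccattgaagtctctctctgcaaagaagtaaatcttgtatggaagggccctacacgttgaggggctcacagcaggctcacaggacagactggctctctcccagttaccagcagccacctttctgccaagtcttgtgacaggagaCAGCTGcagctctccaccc
Cox6a1, chr5:115348959-115349208, minus strand: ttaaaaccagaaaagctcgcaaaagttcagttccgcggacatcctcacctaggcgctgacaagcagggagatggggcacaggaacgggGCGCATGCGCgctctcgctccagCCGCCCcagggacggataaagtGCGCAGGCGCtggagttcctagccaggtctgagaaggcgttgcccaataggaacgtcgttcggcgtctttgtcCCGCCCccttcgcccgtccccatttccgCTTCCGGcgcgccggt
Cox8a, chr19:7217617-7217866, minus strand: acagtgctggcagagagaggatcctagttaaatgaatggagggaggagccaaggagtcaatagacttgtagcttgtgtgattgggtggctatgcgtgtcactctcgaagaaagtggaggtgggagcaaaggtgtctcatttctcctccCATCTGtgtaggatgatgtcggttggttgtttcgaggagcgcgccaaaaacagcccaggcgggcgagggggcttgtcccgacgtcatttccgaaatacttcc

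Both strands were searched for CANNTG (E-box), CTA and TAG set 4 bases apart (MEF2), GCGCA and GCGC set 1 base apart (NRF1), CCGGAAG (ETS, bound by GABP), AAGATGG (YY1), AAGGTCA (ERR), TGACGTCA (CREB) and GGGCGG (Sp1). The capitals in Cox7a1 (CAAATG), Cox8b (CAGCTG) and Cox8a (CATCTG) are E-box letters. Such letters stood in 66.2% of the 32851 promoters in the table. Cox6a1 held the NRF1 letters at both GCGCATGCGC and GCGCAGGCGC, the ETS letters at CTTCCGG and the Sp1 letters at CCGCCC, which occurred at 2 places. The window of Cox6a1 had 26 CpG dinucleotides, that of Cox8a 11, that of Cox7a1 4 and that of Cox8b 1, against a median of 6 over all promoters. That of Cox7a2, which is not shown, had 14.

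Promoters were found for 59 of the 71 genes. The CpG count had a median of 14 over their 65 promoters. Over the 59 promoters of subunit genes, the NRF1 letters stood in 10 (16.9%), against 3.74% of all promoters, and the ETS letters in 9 (15.3%), against 6.91%. The Sp1 letters stood in 37.3% against 32.7%, the ERR letters in 6.78% against 4.08%, the CREB letters in 5.08% against 1.55% and the YY1 letters in 1.69% against 4.49%. The MEF2 letters stood in 0 of 59, against 3.20% of all promoters. NRF1 and GABP are textbook regulators of nuclear genes for mitochondrial proteins. These are counts of letters in the window, not of bound sites.

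Cox6a2 lay at 15.65 and 15.68 on the PBS and MCSE muscle arrays and at 10.004 and 9.30 on the liver-labelled ones. Both muscle arrays were far above both liver-labelled arrays, by 6.01 ± 0.33 (SE) on the log2 scale, which is 64.4-fold (limma, Benjamini-Hochberg adjusted p = 0.000512). Cox7a1 lay at 14.47 and 14.93 on muscle and at 9.88 and 10.80 on the liver label. It was 4.36 ± 0.39 higher on muscle, or 20.5-fold (limma adjusted p = 0.00231). Cox8b lay at 15.28 and 15.54 on muscle against 12.05 and 12.41, a difference of 3.18 ± 0.29 with limma (adjusted p = 0.00231). In each of these 3 genes both muscle arrays were above both liver-labelled arrays, as they were for 33.9% of all genes tested.

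The general forms went the other way. Cox6a1 lay at 12.81 and 12.80 on muscle and at 14.94 and 15.41 on the liver label, a difference of -2.36 ± 0.29 (limma adjusted p = 0.00446). Its second probe gave 12.40 and 12.38 on muscle against 14.17 and 14.93, a difference of -2.16. Cox8a lay at 13.07 and 13.40 on muscle and at 15.81 and 15.19 on the liver label, a difference of -2.26 ± 0.33 (limma adjusted p = 0.00698). Without the PBS muscle array its adjusted p from limma was 0.05005, just above the threshold. Cox7a2, the general form of 7a, did not follow this pattern. It lay at 14.70 and 14.59 on muscle and at 15.18 and 14.65 on the liver label, so that the arrays overlapped. Its difference was -0.27 with a 95% interval of -1.01 to 0.47 (limma adjusted p = 0.516).

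The remaining measured subunits of complex IV, Cox4i1, Cox5a, Cox6b1, Cox6b2, Cox7b and Ndufa4, were not called. Cox4i1, the regulatory subunit 4, lay at 15.46 and 15.37 on muscle against 15.63 and 14.90, a difference of 0.15 (95% interval -0.67 to 0.97). Cox6b1, which binds near cytochrome c, lay at 15.10 and 15.35 against 14.65 and 15.46, a difference of 0.17 (-0.71 to 1.04). Cox7b had a difference of -0.31, Ndufa4 of 0.56 and Cox6b2 of 0.13. In these 5 genes the limma adjusted p was between 0.185 and 0.750, and the intervals do not show equal levels. Cox5a, a matrix-side subunit, had a wider difference of 0.96 (95% interval -0.38 to 2.30, limma adjusted p = 0.218). It overlapped between the labels, and its difference was 1.79 without the MCSE muscle array and 0.14 without the PBS muscle array.

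**Figure D2:**
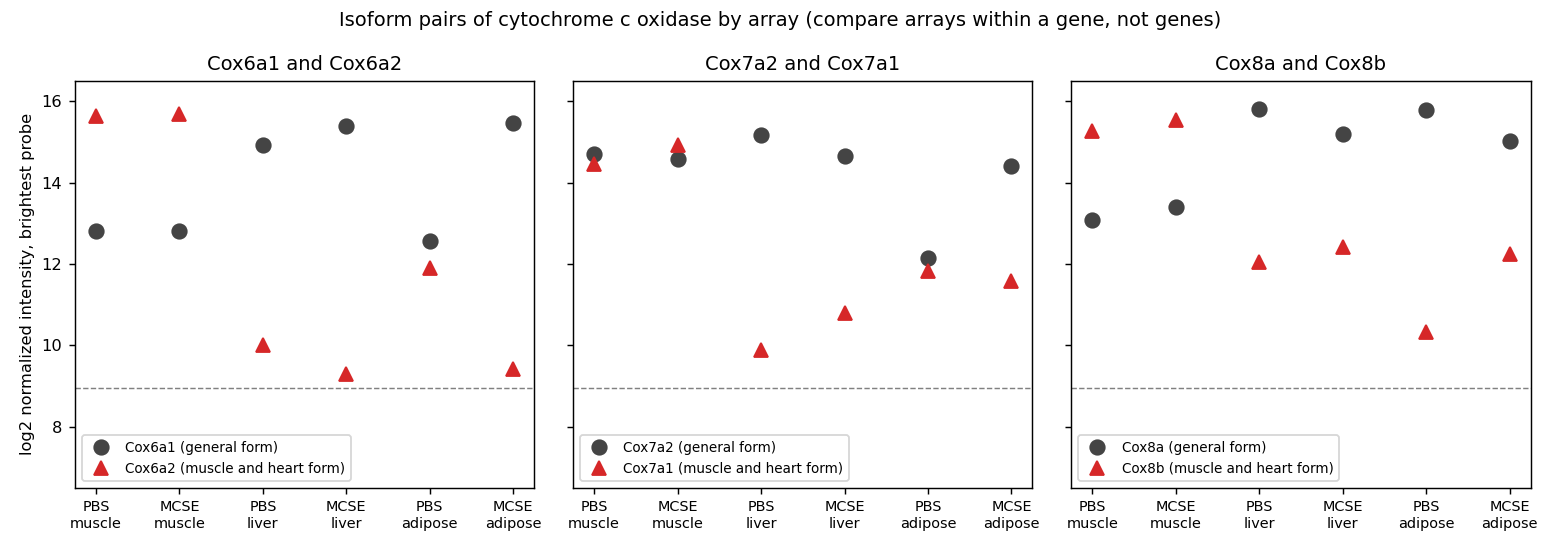
Log2 normalized intensity of 3 isoform pairs of cytochrome c oxidase on each of the 6 arrays. Dark circles are the general form, red triangles the form of muscle and heart and the dashed line the median of all probes, and arrays are to be compared within a gene. Cox6a2 is at 15.65 and 15.68 on muscle and at 9.30 to 10.004 on the liver label, whereas Cox7a2 lies between 14.59 and 15.18 on these 4 arrays.

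On the array labelled PBS adipose, Cox6a2 (11.90), Cox7a1 (11.82) and Cox8b (10.33) lay below their muscle levels. Cox6a2 was above its liver-labelled levels there and Cox8b below them. Cardiac markers had a median of 12.20 on this array, 11.90 and 11.54 on muscle, and 10.23 and 8.70 on the liver label, and heart also uses these forms of complex IV. Brown fat uses Cox7a1 and Cox8b as well. Of the 8 brown adipocyte markers, 3 were measured on muscle and 5 on the liver label, and Ucp1, the uncoupling protein of brown fat, lay between 8.32 and 9.59 on all 6 arrays. The median of the 8 was 8.31 on the PBS adipose array and 8.62 to 9.01 on the others. Elovl3 was bright on the PBS adipose array, at 12.79 against 8.80 to 10.53 elsewhere. Otop1 lay at 10.30 there, at 10.24 on the PBS liver array and at 8.83 to 9.59 on the others. The part of heart or brown fat RNA in these levels was not tested.

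Over all 71 genes, 68 were tested, being at or above the median probe on 2 or more of the 4 muscle and liver-labelled arrays. Of these, 10 were called higher on muscle and 3 lower, at an adjusted p under 0.05 with limma and at least 2-fold. Over all 11113 genes tested, 11.1% were called higher on muscle and 17.2% lower. The share of members called higher, 10 of 68, is near the background, and that called lower, 3 of 68, is below it. The median difference of the members was 0.36, against -0.02 over all genes tested, and 50 of the 68 lay above 0, as did 5480 of the 11113. The arrays of a label came from differently treated mice, so p-values measure the spread between these arrays and include any effect of MCSE.

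The fit used the muscle and liver-labelled arrays only. When all 6 arrays shared 1 estimate of the spread, 0 of the 68 genes were called with limma and 4 had an unadjusted p under 0.05, and 0.396% of all genes were called higher and 0.0% lower. Cox7a1 then had an adjusted p of 0.0639 and Cox6a2 of 0.0738. Leaving out an array leaves a label with 1 array, which is then assumed to vary like the 2 of the other label. Without the PBS muscle array 4 genes were called higher and 1 lower with limma, and without the MCSE muscle array 4 and 3. Without the PBS liver array the counts were 7 and 5, and without the MCSE liver array 16 and 3. Cox6a2, Cox7a1, Cox8b and Cox6a1 were called in each of these 4 fits.

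In complex I, 5 of 31 genes were called higher on muscle and 0 lower, with a median difference of 0.41. Over all genes tested, 11.1% were called higher on muscle and 17.2% lower. Ndufs1, the largest subunit of the NADH-oxidising arm with iron-sulphur clusters, lay at 14.40 and 14.28 on muscle and at 12.32 and 12.71 on the liver label. Its difference was 1.82 ± 0.28 (limma adjusted p = 0.00841). Ndufs7, next to the quinone site, lay at 14.62 and 14.49 against 13.35 and 13.55, a difference of 1.11 ± 0.27 (limma adjusted p = 0.0288). Ndufa12 was higher by 1.42, Ndufb5 by 1.15 and Ndufb11 by 1.41, with limma adjusted p of 0.0390, 0.0433 and 0.049997. All 5 lost the call without the PBS muscle array and without the MCSE muscle array, with limma adjusted p of 0.0692 and 0.0619 for Ndufs1. Ndufa12, Ndufb5 and Ndufb11 also lost it without the PBS liver array, where their differences were 0.93, 0.82 and 0.84.

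The rest of complex I showed no call. Ndufa10 (1.66) and Ndufa8 (1.30) had differences of the same size but wider errors, with limma adjusted p of 0.0521 and 0.0662. Among core subunits, Ndufv1, which binds NADH, lay at 14.88 and 14.47 on muscle against 13.93 and 13.99 (difference 0.71, limma adjusted p = 0.105). Ndufs8, an iron-sulphur subunit, had a difference of 0.83 and Ndufv2 of 0.42. Ndufs3 lay at 10.69 and 11.25 against 10.96 and 10.97, a difference of 0.01. Ndufab1 was 0.93 lower on muscle, short of 2-fold, with a limma adjusted p of 0.0477. Its other probe gave -0.20.

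Complex II, which also belongs to the tricarboxylic acid cycle, had no called gene among its 4 (0 with an unadjusted p under 0.05 from limma). Sdha, the flavoprotein, lay at 14.95 and 14.50 on muscle and at 14.57 and 14.30 on the liver label. Sdhb, the iron-sulphur subunit, lay at 14.62 and 15.11 against 13.85 and 14.33, a difference of 0.77 (95% interval -0.02 to 1.57). The membrane anchors Sdhc and Sdhd differed by 0.32 and 0.10. In 3 of these genes both muscle arrays were above both liver-labelled arrays, which held for 33.9% of all genes tested.

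In complex III, 1 of 6 genes was called, where 11.1% of all genes tested were called higher on muscle. Uqcrc1, a core protein, lay at 13.64 and 14.17 on muscle and at 11.30 and 12.28 on the liver label, 2.12 ± 0.41 higher (limma adjusted p = 0.0156). Without the MCSE muscle array its limma adjusted p was 0.0951. Uqcrc2, the other core protein, differed by 0.72 and Uqcrfs1, the Rieske iron-sulphur protein, by 1.00, with limma adjusted p of 0.144 and 0.110. Uqcrh, the hinge protein, had a difference of -0.59.

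In complex V, 1 of 9 genes was called, where 11.1% of all genes tested were called higher on muscle. This was Atp5j, the coupling factor 6 of the stalk. It lay at 13.92 on both muscle arrays and at 12.89 and 12.31 on the liver label, a difference of 1.32 ± 0.31 (limma adjusted p = 0.0256). Without the PBS muscle array the limma adjusted p was 0.143, and without the MCSE muscle array 0.156. Atp5g3, a gene for the c-ring, was at 15.56 and 15.43 against 15.59 and 15.67. Atp5c1, the gamma shaft, showed how probes of a gene can part. Its brightest probe differed by 0.11 between the labels, and its second probe by 2.18, with 13.21 and 13.94 on muscle against 10.15 and 12.65. Among the genes that are not subunits, Cox4nb was called lower on muscle, at 8.88 and 9.20 against 11.28 and 10.79 (limma adjusted p = 0.00815, and 0.0646 without the PBS muscle array).

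**Figure D3:**
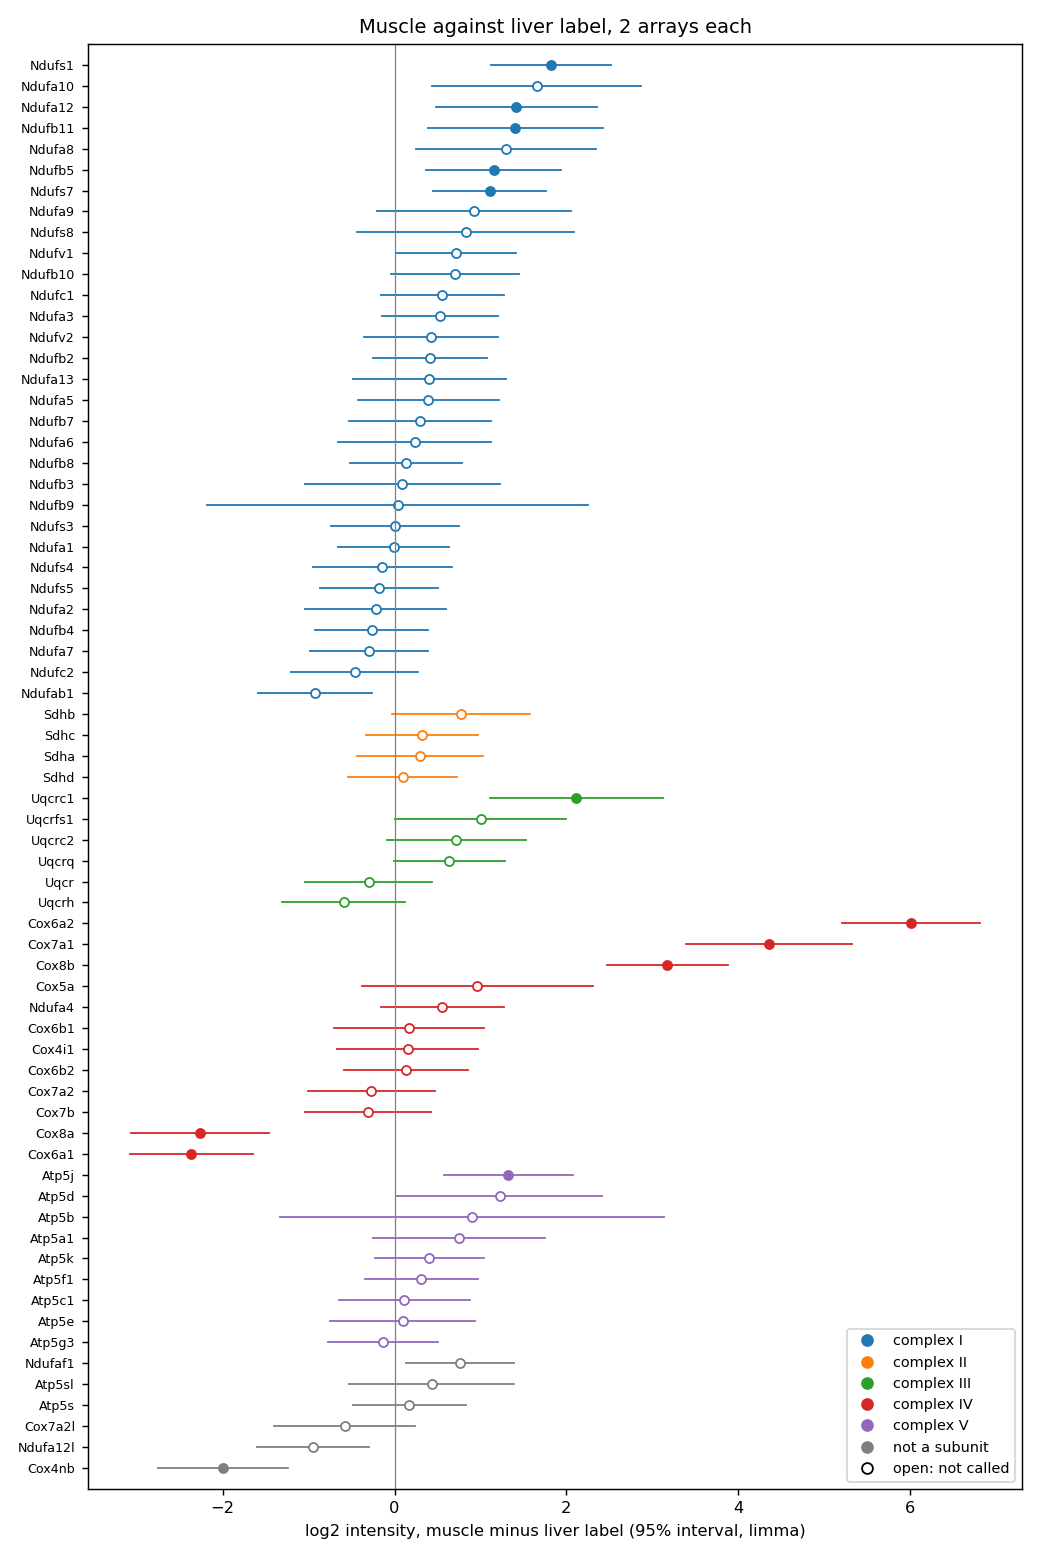
Difference in log2 intensity between muscle and the liver label for the 68 genes tested, with the 95% interval from limma (2 arrays a label). Filled circles are called (adjusted p under 0.05 and at least 2-fold). The isoforms of complex IV lie outermost, from -2.36 for Cox6a1 to 6.01 for Cox6a2, and most genes of complexes I, II, III and V lie between -1 and 2.

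With MCSE in muscle, 4 genes of 3 complexes were lower by over 2-fold and 1 gene was higher. Differences here are log2 MCSE minus PBS, from 1 array each. Of the 68 measured members, 1 was higher by 2-fold or more and 4 were lower by as much. The background, from 10711 measured genes, was 3.9% higher and 1.88% lower. The median of the members was 0.05, against -0.05 over all measured genes, and 53 of the 68 lay within 0.5 of 0, as did 8225 of the 10711. As a gauge of disagreement between probes, the SD per probe was 0.53, from 1308 genes with 2 measured probes. Both probes of a gene share the same arrays, so this SD leaves out error of the array, the RNA or the animal.

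Ndufb9, an accessory subunit in the membrane arm of complex I, lay at 13.07 with PBS and 10.07 with MCSE, a difference of -3.00. Its levels on the other arrays were 11.40 to 11.67, between these values. Atp5b, the catalytic beta subunit of the ATP synthase, lay at 15.34 with PBS and 12.37 with MCSE, a difference of -2.97. Cox5a lay at 14.60 and 12.95 (-1.65), and Ndufb3, a small membrane-arm subunit, at 12.85 and 11.59 (-1.26). Each of these 4 genes had 1 probe on the array, so no second probe could be set beside it.

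Atp5a1, the alpha subunit that alternates with Atp5b in the head of the enzyme, went the other way. It lay at 14.76 with PBS and 15.86 with MCSE (1.09). The other genes of complex V lay closer to 0, with Atp5c1 at 0.18, Atp5d, the delta subunit, at 0.42, Atp5e at 0.23, Atp5f1 at 0.03, Atp5g3 at -0.13, Atp5j at 0.00 and Atp5k at -0.08. The median of complex V was 0.03. Thus the alpha and beta genes, which supply equal numbers of subunits to 1 enzyme, differed in opposite directions, while the 7 other genes stayed within 0.5 on their brightest probes. The second probe of Atp5c1 gave 0.73. Atp5a1 and Atp5b had a single probe each. That of Atp5b also differed by 1.80 between the MCSE adipose and MCSE liver arrays, which correlated at 0.98 over all probes.

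By complex, the medians in muscle were 0.07 for I, -0.08 for II, 0.22 for III and 0.09 for IV. In complex I, 23 of 31 genes lay within 0.5 of 0, and the highest was Ndufa6 at 0.84 (13.97 with PBS, 14.81 with MCSE). Ndufv2 was at 0.63, Ndufs3 at 0.56, Ndufs8 at 0.47, Ndufs1 at -0.12, Ndufs7 at -0.13 and Ndufv1 at -0.41. In complex II, Sdhb was at 0.49 and Sdha at -0.45. In complex III, Uqcrc1 was at 0.52, Uqcrc2 at -0.04 and Uqcrfs1 at -0.84 (10.75 with PBS, 9.90 with MCSE).

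The isoforms of complex IV kept close levels on the muscle pair. Cox6a2 differed by 0.03, Cox7a1 by 0.46, Cox8b by 0.26, Cox6a1 by -0.01, Cox7a2 by -0.10 and Cox8a by 0.33. Slow fibre markers differed far more, with a median of 1.34 and 7 of 10 genes at least 2-fold higher. Kidney markers had a median of 0.69, with 2 of 10 measured genes 2-fold higher. Slow fibres and kidney are both rich in mitochondria. The part of either in the members' differences was not tested.

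Of 15 genes of the tricarboxylic acid cycle, 2 were 2-fold lower with MCSE in muscle and 0 higher, with a median of -0.21. Cs, citrate synthase, the first enzyme of the cycle, lay at 14.33 with PBS and at the floor of the scale (7.74) with MCSE, while it was at 13.04 to 13.19 on the liver-labelled and MCSE adipose arrays. It had a single probe. Pdha1, which feeds the cycle from pyruvate, lay at 13.81 and 12.34 (-1.47). Of 33 measured assembly factors, among which Ndufaf1 and Ndufa12l also count as members, 1 was higher, Atpaf1, which assembles the head of the ATP synthase (1.20), and 0 were lower.

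Electron carriers and subunits outside the prefixes had 0 of 18 past 2-fold in muscle, with Cyc1, cytochrome c1 of complex III, at 0.30. Carriers of ADP, phosphate and energy had 0 of 8, with Slc25a4, the ADP/ATP carrier of muscle, at 15.93 and 15.74. Of 11 measured regulators of mitochondrial biogenesis, 0 passed 2-fold, with a median of -0.35. Ppargc1a, the coactivator PGC-1alpha, was at -0.65 and Esrra, the receptor ERRalpha, at 0.09. Symbols of the 13 subunits encoded by mitochondrial DNA matched 0 probes, and they were not analysed here.

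Treatment was also tested over labels, with label as a term in limma. On the muscle and liver-labelled arrays (1 residual degree of freedom) 0 of 68 members were called, and 0.0% of all genes were called in either direction. An unadjusted p under 0.05 from limma was found for 8 members (11.8%), near the 9.56% of all genes tested. The lowest adjusted p among members was 0.390, for Atp5b, with a mean MCSE minus PBS of -1.80 ± 0.51 (SE) over both labels. On all 6 arrays limma called 0 members as well, with 1 unadjusted p under 0.05 (1.47% of members, against 2.83% of all genes tested). A p above the threshold does not show that MCSE and PBS were alike.

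**Figure D4:**
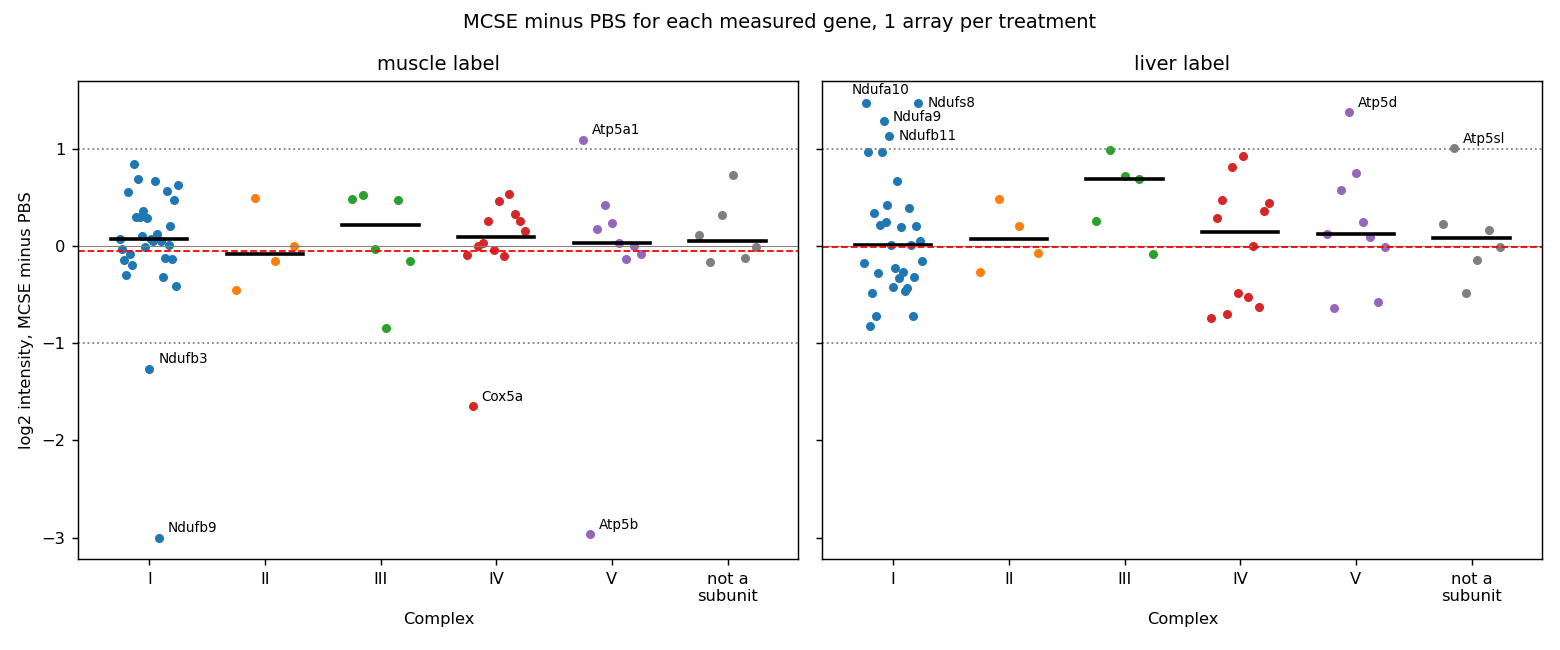
Log2 MCSE minus PBS for each measured gene on the muscle pair (left) and the liver-labelled pair (right), by complex. Points are genes, black bars medians, dotted lines 2-fold and the red dashed line the median of all measured genes. On the muscle pair Ndufb9 (-3.00) and Atp5b (-2.97) lie far below the rest, and on the liver-labelled pair 6 genes lie at or above 1 and 0 at or below -1.

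On the liver-labelled pair 6 of 67 measured members were higher with MCSE by 2-fold or more and 0 were lower by as much. The background, from 11342 measured genes, was 8.27% higher and 6.01% lower, and 6 of 67 is near it. The median of the members was 0.12, against -0.02 over all measured genes, and the SD per probe was 0.61. The 6 genes were Ndufa10, Ndufs8, Ndufa9 and Ndufb11 of complex I, Atp5d of complex V and Atp5sl, which is not a subunit.

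Ndufa10, an accessory subunit of the membrane arm, lay at 11.77 with PBS and 13.24 with MCSE (1.47), and its second, dimmer probe gave 0.70. Ndufs8 lay at 11.68 and 13.15 (1.47), Ndufa9, near the quinone site, at 12.04 and 13.33 (1.29) and Ndufb11 at 9.90 and 11.02 (1.13). Atp5d lay at 12.39 and 13.76 (1.37), and Atp5sl at 10.51 and 11.52 (1.00). In 5 of these 6 genes the PBS liver value was at least 2-fold below that of both muscle arrays and of both the MCSE liver and MCSE adipose arrays, as it was for 403 of the 938 genes (43.0%) that were higher over the whole array. Atp5sl was the sixth. The MCSE liver part of this was fixed by how the 6 genes, like the 938, were picked. The MCSE adipose array was close to the MCSE liver array, so mainly the muscle arrays add to it.

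The second probe of Atp5c1 was of the same kind. It gave 10.15 with PBS and 12.65 with MCSE, a difference of 2.50, with 13.21 and 13.94 on muscle. The brightest probe of the gene gave 15.09 and 15.67, a difference of 0.58. Kidney markers moved up on this pair as well, with a median of 1.08 and 6 of 12 measured genes 2-fold higher and 0 lower. Markers of striated muscle moved down. The median was -1.44 for cardiac markers, where 6 of 9 measured genes were 2-fold lower. It was -1.24 for slow fibre markers, with 5 of 7 lower, and -0.40 for fast fibre markers, with 1 of 9 lower. The part of kidney, heart or skeletal muscle RNA in the members' differences was not tested.

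Complex III had the highest median on the liver-labelled pair, 0.69 over 5 measured genes, with Uqcrc1 at 0.98, Uqcrc2 at 0.72 and Uqcrfs1 at 0.69. Uqcr (now Uqcr11) was at 0.25 and Uqcrh at -0.09. With no filter on dim probes, which takes in Uqcrq (-0.03), the complex III median was 0.47. With the upper quartile filter it was 0.49. The medians of the others were 0.01 for complex I, 0.07 for II, 0.14 for IV and 0.12 for V. In complex I values ran from -0.83 for Ndufa13, an accessory subunit also known as GRIM-19, to those of Ndufa10. Ndufs4 (-0.72) and Ndufa5 (-0.72) were low on their brightest probes, and their second probes gave -0.02 and -0.30.

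Within complex IV, genes parted in both directions. Cox7a1 was at 0.92, Cox6b1 at 0.81, Cox6a1 at 0.47 and Cox8b at 0.36. Cox4i1 was at -0.74, Cox6a2 at -0.70, Cox8a at -0.63 and Cox7a2 at -0.52. The second probe of Cox6b1 gave 0.07 and that of Cox6a1 0.77. Among the 4 genes lower in muscle, Ndufb9 was at -0.27 here, Atp5b at -0.64, Ndufb3 at -0.43 and Cox5a at 0.29, and Atp5a1 was at 0.12.

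Of the wider pathway on the liver-labelled pair, 3 of 35 measured assembly factors were 2-fold higher and 0 lower. They were 2010305A19Rik (now Coa7, a factor of complex IV) at 2.76, 0610010E21Rik (now Sdhaf1, a factor of complex II) at 1.20 and Atpaf1 at 1.16. In the tricarboxylic acid cycle 1 of 14 was higher, Ogdh, the oxoglutarate dehydrogenase, at 1.24. Of 10 measured biogenesis regulators 1 was higher, Ppargc1a (1.74), from 8.96 with PBS to 10.70 with MCSE. Of 8 measured carriers 1 was lower, Ckmt2, the mitochondrial creatine kinase of striated muscle, at -1.95, and electron carriers had 0 of 19 past 2-fold.

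The adipose labels were described by level only. Between the MCSE adipose and MCSE liver arrays, 66 of the 71 genes lay within 0.5 of each other. The exception past 2-fold was Atp5b, at 14.44 for the adipose label and 12.63 for the liver label. Atp5b thus ranged from 12.37 to 15.34 over the 6 arrays without following the labels, and it lay at 13.27 with PBS on the liver label and 13.05 with PBS on the adipose label.

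On the PBS adipose array 60 of the 71 genes lay below all 5 other arrays, 54 of them by at least 2-fold. Over all 16675 genes, which include many dim ones, the shares were 33.7% and 16.3%, and 39.1% lay above all 5 other arrays, as did 3 of the 71. Sdha was at 10.24, Ndufs1 at 9.63, Uqcrc1 at 9.50 and Atp5a1 at 11.55. A few genes were bright there. Cox8a lay at 15.79, close to its 15.81 on the PBS liver array. Ndufa9 lay at 13.03, above its PBS liver level. Uqcrq (10.47), Cox6b2 (12.84) and Cox8c (9.85) had their highest values of all 6 arrays on it, and Atpaf1 reached 15.18 against 8.94 to 11.58 elsewhere. The second probe of Ndufb8 lay at 13.22 on this array against 10.28 to 11.06 on the others, whereas its brightest probe was at 11.66 against 15.01 to 15.31.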

How the data were processed

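Total RNA was amplified, labelled with Cy5 and hybridised to 1-colour arrays, per the labels' protocols. The authors deposited normalized intensity values on a linear scale, for 29922 probes and 6 arrays. The submitters' processing notes name limma, with no role. Background correction and normalization method are not given in the sources used here. Sorted log2 values differed between arrays by at most 0.05, so the arrays had been brought to 1 distribution, which assumes a shared distribution of intensities. Precision is limited by having 1 array per group.

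The platform annotation gave 1 symbol for 21020 probes, and older symbols were matched through RefSeq synonyms. Intensities were raised to the 5th percentile (214.2) and log2 was taken. The probe with the highest mean log2 value over all arrays stood for its gene. Genes at or above the median probe on 1 or both arrays of a pair were taken as measured. MCSE and PBS (1 array each) were compared within a label as a log2 difference, counted from 2-fold on, with no test. Muscle and liver label (2 arrays each) were compared with limma 3.58.1 (R 4.3.3; lmFit, eBayes, 2 residual degrees of freedom), adjusted by Benjamini-Hochberg over 11113 genes at or above that median on 2 or more of these arrays. The fit was tested on simulated data. Treatment was also fitted with limma with label as a term, an alternative chosen after seeing the data. Alternatives were quantile normalization, centring, the mean over probes, other filters, 32 added before log2, 1.5-fold, all 6 arrays, each array left out in turn, treatment as a term and eBayes with a trend.

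Members and lists were chosen with earlier results of these data known. Named were the members past 2-fold, isoform sets, core subunits, up to 3 called genes per complex and direction, and the extremes of each complex. Others, such as Ndufb5, Ndufa8, Cox7b, Ndufa5 and Ndufb8, were named after their values were seen. Cox5b, Atp5o, Atp5g1, Atp5g2 and Ndufa4l2 were not analysed here. Python 3.11.15, numpy 2.4.6, pandas 2.3.3 and matplotlib 3.10.9 were used.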

Additional observations from a re-analysis of the deposited data

Results flagged for a closer look

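Uqcrfs1, the Rieske protein of complex III, differed in opposite directions on the 2 pairs, each time by more than the SD per probe. It was at -0.84 on the muscle pair and at 0.69 on the liver-labelled pair. On the liver label it lay at 8.98 and 9.67, near the median probe (8.95), and the upper quartile filter removed it there. Between the MCSE adipose and MCSE liver arrays it differed by 0.68. It was flagged for its opposite signs, and the share of all genes with such signs was not counted. On both pairs it rested on 1 probe and 1 array per treatment, and the difference between the pairs was not tested.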

How the results depend on the processing

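With a threshold of 1.5-fold in place of 2-fold, 6 members were higher and 5 lower on the muscle pair. On the liver-labelled pair 15 were higher and 7 lower. The share of all genes past 1.5-fold was not counted, so these counts have no background. The 2-fold counts stayed within 1.5 times under centring, the mean over probes, both other filters and 32 added before log2. Quantile normalization could change little, since the arrays already shared 1 distribution. The median of complex III on the muscle pair went from 0.22 to 0.47 with the upper quartile filter, and that of complex IV on the liver-labelled pair from 0.14 to -0.0037 with no filter and 0.29 with the upper quartile filter. On the liver-labelled pair the median of complex III went from 0.69 to 0.47 with no filter and 0.49 with the upper quartile filter. In the comparison of muscle with the liver label, the fit on all 6 arrays called 0 members higher and 0 lower. With no filter on dim probes 5 were called higher. Leaving out each array in turn gave 4 to 16 called higher and 1 to 5 called lower. The cause was not tested. The labels give no replicate numbers. With treatment as a term, which pairs the muscle and liver-labelled arrays by treatment, 16 members were called, among them the 13 of the fit without it. The share of all genes called was not counted with treatment as a term, with no filter or with an array left out. The scale ended at 16.41, which bounds how far a bright member could rise.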
